A study of Mus musculus with 4 samples.

Results

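The nuclear genes of oxidative phosphorylation were followed through the germ-cell-like and somatic-like cells of a Znhit1-knockout mouse testis at postnatal day 35. The genes were taken by symbol: every gene whose name begins with Nduf, Sdh, Uqcr, Atp5, or Cox and a digit, without pseudogenes and without Cox6b1, Cox6b2, Cox7b, Cox7b2, Cox8a and Cox8c. The rule gave 100 of the 32285 genes counted. They comprise 36 structural subunits and 8 assembly factors of complex I, 8 genes of complex II (4 subunits and 4 assembly factors), 8 of complex III, 14 structural subunits and 9 assembly factors of complex IV, and 17 of complex V. Ndufa4 was placed with complex IV, where its protein is found. Its relative Ndufa4l2 was grouped with it and counted among the 14 structural subunits, a choice of grouping only.

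The series has 4 single-cell libraries of mouse testis cells, 1 per group: control and Znhit1 knockout, each at postnatal days 16 and 35. ZNHIT1 was depleted in germ cells, and the sources used here name neither the Cre driver, the strain nor the number of mice per library. Counts of the day 35 knockout library were analysed; the counts of 3 libraries were not used here, so nothing below compares knockout with control. With 1 library per group there is no replicate and no test. Every interval is a 95% interval that covers counting error only.

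Oxidative phosphorylation passes electrons from NADH (complex I) and succinate (complex II) through ubiquinone, complex III and cytochrome c to oxygen at complex IV. The proton gradient built by complexes I, III and IV drives ATP synthase, complex V. All complexes except II mix nuclear-encoded subunits with a few encoded by mitochondrial DNA, and separate assembly factors help to build them. In the testis, pachytene spermatocytes are known to rely on mitochondrial respiration and Sertoli cells to ferment glucose to lactate, while Leydig cells begin steroid synthesis inside mitochondria.

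The promoters of 82 members were present in RefSeq (mouse, GRCm38.p6), as 88 windows of 300 bases from 250 before to 50 after the start. The 4 motifs were searched on both strands because nuclear respiratory genes are known targets of these factors. The NRF1 motif GCATGCGC was in 12 windows (13.6%) against 2.71% of all 32851 promoters of that length. The ETS-factor motif CCGGAAG, the kind bound by GABPA, was in 26 (29.5%) against 8.86%. The YY1 motif AANATGGCG was in 13 (14.8%) against 2.38%, and the SP-family motif GGGCGG was in 44 (50%) against 35.7%. At least 1 of the motifs was in 64 windows (72.7%) against 40.6% of all promoters, and different motifs overlapped in 1 window. A match is a description of the letters and not a measured binding site.

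The upstream stretches of 250 bases are shown because these genes carry the contrasts below. Ndufaf4 (chr4:24897833-24898082, + strand) and Ndufs8 (chr19:3912775-3913024, - strand) were the assembly factor and the core subunit of complex I with the largest fold by which early-prophase-like cells lay below spermatogonium-like cells. Ndufaf1 (chr2:119662835-119663084, - strand) was higher in early prophase, and Atp5g3 (chr2:73911327-73911576, - strand) was the most Leydig-weighted gene of ATP synthase subunit c. Each window lies just before the annotated start and holds no annotated exon. Capitals mark the searched motifs: the NRF1 motif on both strands, overlapping itself, and 2 SP motifs in Ndufaf4, and 1 SP and 1 ETS motif in Ndufaf1. The Ndufs8 and Atp5g3 stretches hold none of these motifs. Over all 300 bases Ndufs8 had 1 ETS motif and Ndufaf4 had 3 NRF1 matches, so some matches lie outside the printed stretches.
Ndufaf4: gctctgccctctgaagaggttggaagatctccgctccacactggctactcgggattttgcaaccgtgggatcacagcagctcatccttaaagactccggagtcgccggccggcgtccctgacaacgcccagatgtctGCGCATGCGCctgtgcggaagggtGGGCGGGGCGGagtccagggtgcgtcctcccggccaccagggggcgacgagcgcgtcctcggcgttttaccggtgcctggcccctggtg
Ndufs8: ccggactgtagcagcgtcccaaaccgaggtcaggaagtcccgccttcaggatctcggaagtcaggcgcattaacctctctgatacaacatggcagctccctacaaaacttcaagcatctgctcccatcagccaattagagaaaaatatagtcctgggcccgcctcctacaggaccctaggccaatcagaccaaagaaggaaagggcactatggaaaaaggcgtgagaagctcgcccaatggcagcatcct
Ndufaf1: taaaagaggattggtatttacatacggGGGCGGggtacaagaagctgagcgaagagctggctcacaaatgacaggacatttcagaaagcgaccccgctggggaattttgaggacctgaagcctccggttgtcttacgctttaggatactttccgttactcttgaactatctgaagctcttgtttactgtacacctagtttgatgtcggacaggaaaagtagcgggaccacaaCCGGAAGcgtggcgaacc
Atp5g3: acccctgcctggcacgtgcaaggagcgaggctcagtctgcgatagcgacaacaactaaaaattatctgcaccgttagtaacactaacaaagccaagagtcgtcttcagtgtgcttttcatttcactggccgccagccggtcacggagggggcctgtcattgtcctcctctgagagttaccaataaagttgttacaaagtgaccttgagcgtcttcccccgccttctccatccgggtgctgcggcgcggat

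After filters the library held 7856 cells with 48553315 UMIs, the molecular tags by which captured RNAs are counted, with a median of 4607 per cell. Members made up 1025836 of these UMIs, 2.11%, and each of the 100 had at least 1 UMI. Cells fell into 24 clusters, of which 21 could be named from marker genes. They are called spermatogonium 1 to 3, early prophase 1 to 4 and pachytene 1 to 3 in germ cells, ordered from high to low undifferentiated-spermatogonium markers within spermatogonia and from low to high pachytene markers afterwards, and Leydig 1, peritubular 1 and 2, stroma 1, macrophage 1 and 2, Sertoli 1 to 3, endothelial 1 and lymphocyte 1 in somatic cells. All names mean "like" the type, and 3 clusters of 895 shallow cells stayed unnamed. Peritubular stands for peritubular myoid cells or pericytes, which had a joint marker list. The closest names were peritubular 1, with 8 of 11 peritubular and 7 of 10 stroma markers raised at least 2-fold, early prophase 4, with 8 of 20 of its own and 3 of 8 late spermatocyte markers, and pachytene 1, with 7 of 16 and 3 of 8. With a lead of 0.1 in the share of markers asked for, 68 peritubular cells, 388 pachytene cells and 1719 early prophase cells kept their names. Pachytene 3 had 16 of 16 pachytene markers raised and also 5 of 7 detected round spermatid markers. Depth differed along the germ series, from a median of 3960.5 UMIs per cell in spermatogonium 3 to 20011 in pachytene 3. Levels are CPM, a gene's UMIs summed over a cluster's cells and scaled to a common total.

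The targeted gene, Znhit1, had 79 UMIs in germ-cell-like cells (2.47 CPM, interval 1.96 to 3.08) and 238 in somatic-like cells (15.8 CPM, 13.8 to 17.9). The lowest germ cluster was early prophase 2 at 1.49 CPM and the highest was spermatogonium 1 at 3.83 CPM. The deleted part of the gene is not named in the labels, so whether the deletion covers the counted end is not known. No control counts were used here, so the level of Znhit1 without the deletion is unknown for both groups. These counts therefore cannot check the knockout label.

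The members' summed level had no single direction along the germ series. It was 18673 CPM (18533 to 18814) in spermatogonium 1, 21748 in spermatogonium 2 and 24141 (23925 to 24359) in spermatogonium 3. The early prophase clusters gave 18794, 14296 (14153 to 14440), 17424 and 18368 CPM. Pachytene 1 to 3 gave 18753, 21451 and 21795 (21645 to 21945) CPM. Early prophase 2, the cluster with 18 of 20 early prophase markers raised, was thus the low point and spermatogonium 3 the high point. The per-cell medians had the same high and low points: members took a median of 2.42% of a cell's UMIs in spermatogonium 3, 1.43% in early prophase 2 and 2.20% in pachytene 3. Among 97 members with enough counts, 39 had their lowest germ level in early prophase 2, 17 in spermatogonium 1, 16 in pachytene 3 and 12 in pachytene 1. Highest levels were spread over pachytene 3 (23 members), spermatogonium 3 (21) and spermatogonium 2 (16). The same counts over all genes are not given here, so whether members differ from other genes in this cannot be read from them.

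**Figure D1:**
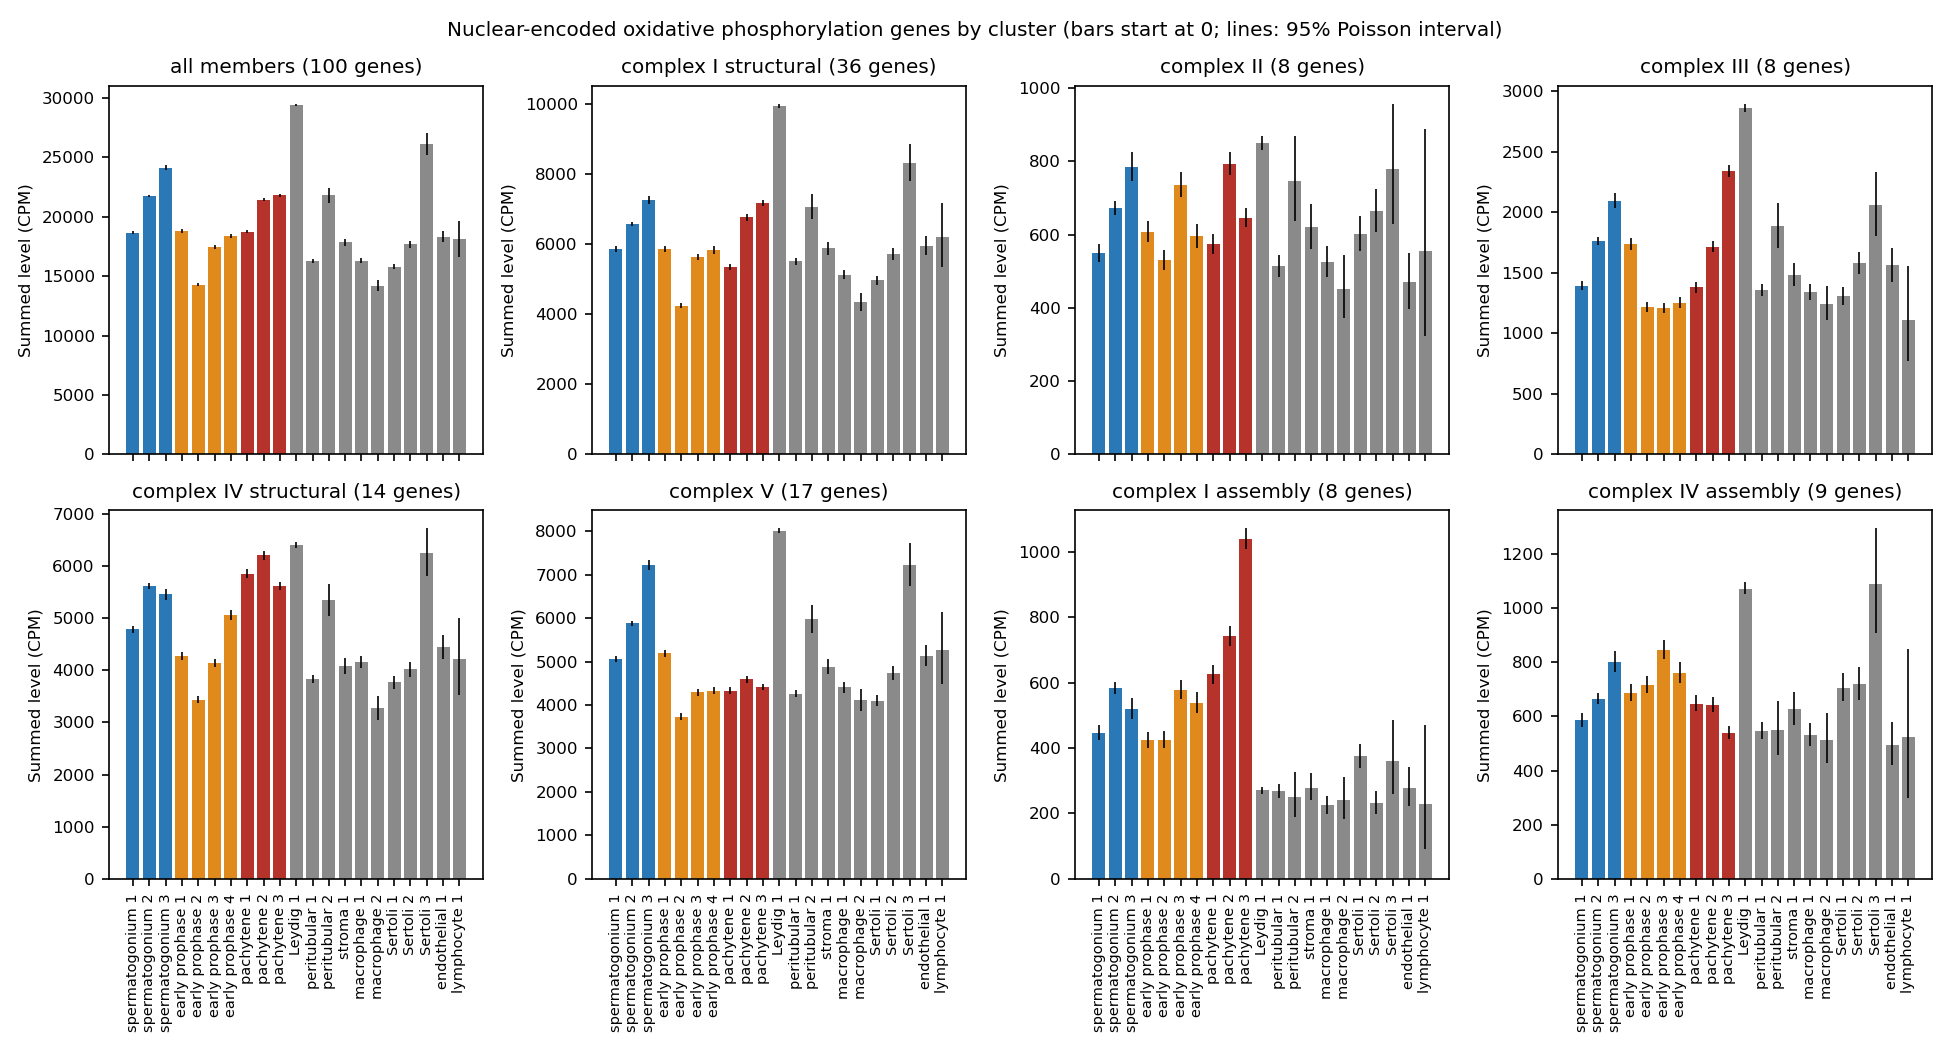
Summed level (CPM) in each named cluster for all 100 members and for each group of members, 1 panel per group, with 95% Poisson intervals; blue, spermatogonium; orange, early prophase; red, pachytene; grey, somatic. Over all members the germ clusters are lowest in early prophase 2 at 14296 CPM, Leydig 1 stands highest at 29416 CPM, and complex I assembly factors are highest in pachytene 3 (1040 CPM), where the 7 factors other than Ndufaf3 summed to 383 CPM, against 436 CPM in spermatogonium 1.

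Members did not share 1 profile over the 10 germ clusters. The Pearson correlation of a member's log2 level with the log2 sum of the other members had a median of 0.44, was above 0.5 for 44 of 97 and below 0 for 24. Cox5b (r = 0.95), a nuclear subunit of cytochrome oxidase, and Ndufb8 (r = 0.94), an accessory subunit of complex I, followed the sum most closely. Ndufaf1 (r = -0.68) and Ndufa1 (r = -0.55) ran against it. All of these points share 1 library and differ in depth, and no test was made.

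Between spermatogonium-like and early-prophase-like cells the summed level was 1.24-fold lower (1.23 to 1.24) in early prophase. Both classes together gave 20 UMIs or more for 97 members, and of these 27 were lower by 1.5-fold or more and 9 higher by that size. Over all 15724 genes with that count, 39.3% were that much lower and 22.4% that much higher, so the members' shares of 27.8% and 9.28% were both below the background, which includes many genes with few counts. The members' median log2 ratio was -0.26 and that of all genes -0.24. Against spermatogonium 3 alone these were -0.44 and 0.0036.

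Complex I, which oxidises NADH, had 8 structural subunits lower and 4 higher of 36, where 39.3% and 22.4% of all genes were. Ndufs8, a core subunit that carries iron-sulfur clusters, measured 122, 148 and 140 CPM in spermatogonium 1 to 3 and 56.4, 22.3, 30.1 and 38.1 CPM in early prophase 1 to 4. Its ranges in the 2 classes did not overlap, and the pooled level was 3.77-fold lower (3.36 to 4.22). It stayed low at 29.7, 48.7 and 53.1 CPM in pachytene 1 to 3. Ndufa11, an accessory subunit of the membrane arm, was 363 CPM in spermatogonia and 120 CPM in early prophase, and Ndufb9 762 and 305 CPM. Ndufa1, an X-linked accessory subunit, had the opposite order, from 69.5 through 125 and 204 CPM in the spermatogonium clusters to 342, 426, 539 and 445 CPM in early prophase, 3.60-fold higher (3.39 to 3.82) when pooled. Ndufv2, a core subunit of the NADH-oxidising module, was 186 CPM and then 310 CPM, 1.67-fold higher (1.58 to 1.76). For both genes the difference was smaller against the last spermatogonium cluster: against spermatogonium 3 alone Ndufa1 was 2.13-fold and Ndufv2 1.04-fold higher. The core subunits Ndufs1, Ndufs3, Ndufs7 and Ndufv1 stayed within 1.5-fold.

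Assembly factors of complex I were split, with 2 lower and 2 higher of 8, where 39.3% and 22.4% of all genes were. Ndufaf4 was 64.6, 78.4 and 69.8 CPM in spermatogonium 1 to 3 and 26.7, 7.81, 22.0 and 20.7 CPM in early prophase, 3.78-fold lower (3.23 to 4.44). Ndufaf1 was 21.6, 20.2 and 22.8 CPM and then 40.8, 56.5, 66.4 and 35.2 CPM, 2.40-fold higher (2.06 to 2.80). The 2 classes did not overlap for either gene, although both proteins serve the building of the same complex. The promoter of Ndufaf4 held NRF1 and SP motifs and that of Ndufaf1 ETS and SP motifs, as printed above. Whether these motifs bear on the courses of the genes was not tested.

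Complex II, which links the citric acid cycle to the chain, had 2 of 8 genes lower and none higher. Among all genes the shares were 39.3% and 22.4%. Sdha, the flavoprotein that oxidises succinate, was 159, 171 and 183 CPM in spermatogonium 1 to 3 and 103, 59.9, 123 and 132 CPM in early prophase, 1.65-fold lower (1.53 to 1.78). The assembly factor Sdhaf4 was 1.55-fold lower. The remaining subunits Sdhb, Sdhc and Sdhd were within 1.5-fold. In complex III 1 of 8 genes passed that size, the small subunit Uqcr11, at 405 CPM in spermatogonia and 249 CPM in early prophase.

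Complex IV had 4 of 11 measured structural subunits lower and none higher, where 39.3% and 22.4% of all genes were. Cox4i1, the ubiquitous form of subunit 4, was 948, 1055 and 1116 CPM in spermatogonium 1 to 3 and 561, 283, 498 and 730 CPM in early prophase, 2.04-fold lower (1.98 to 2.11) with no overlap. Cox6a1 was 2.19-fold and Ndufa4 2.15-fold lower. Cox5a, by contrast, was 786 CPM in spermatogonia and 864 CPM in early prophase. Its assembly factors were split 3 higher and 3 lower of 9: Cox16 was 169 CPM in early prophase and 84.5 CPM in spermatogonia and Cox19, a protein linked to copper supply, 2.52-fold lower (2.18 to 2.92). Set against spermatogonium 3 alone, Cox16 was 1.11-fold higher.

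ATP synthase had 7 of 17 genes lower, near the 39.3% of all genes that were, and none higher, against 22.4%. Of the 7, 3 were among the 5 subunits of F1, the catalytic part. Atp5c1, the rotor shaft of F1, was 311, 412 and 588 CPM in spermatogonium 1 to 3 and 249, 81.8, 119 and 126 CPM in early prophase, 2.81-fold lower (2.65 to 2.98). Atp5a1, an F1 subunit of the catalytic head, was 1.71-fold lower (1.63 to 1.80), while its partner Atp5b differed by only 1.12-fold (476 and 427 CPM). Atp5f1, a stalk subunit, was 621 CPM and then 796 CPM. Its direction depends on the reference, since against spermatogonium 3 alone, where it reached 1058 CPM, it was lower, with a ratio of 0.753.

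**Figure D2:**
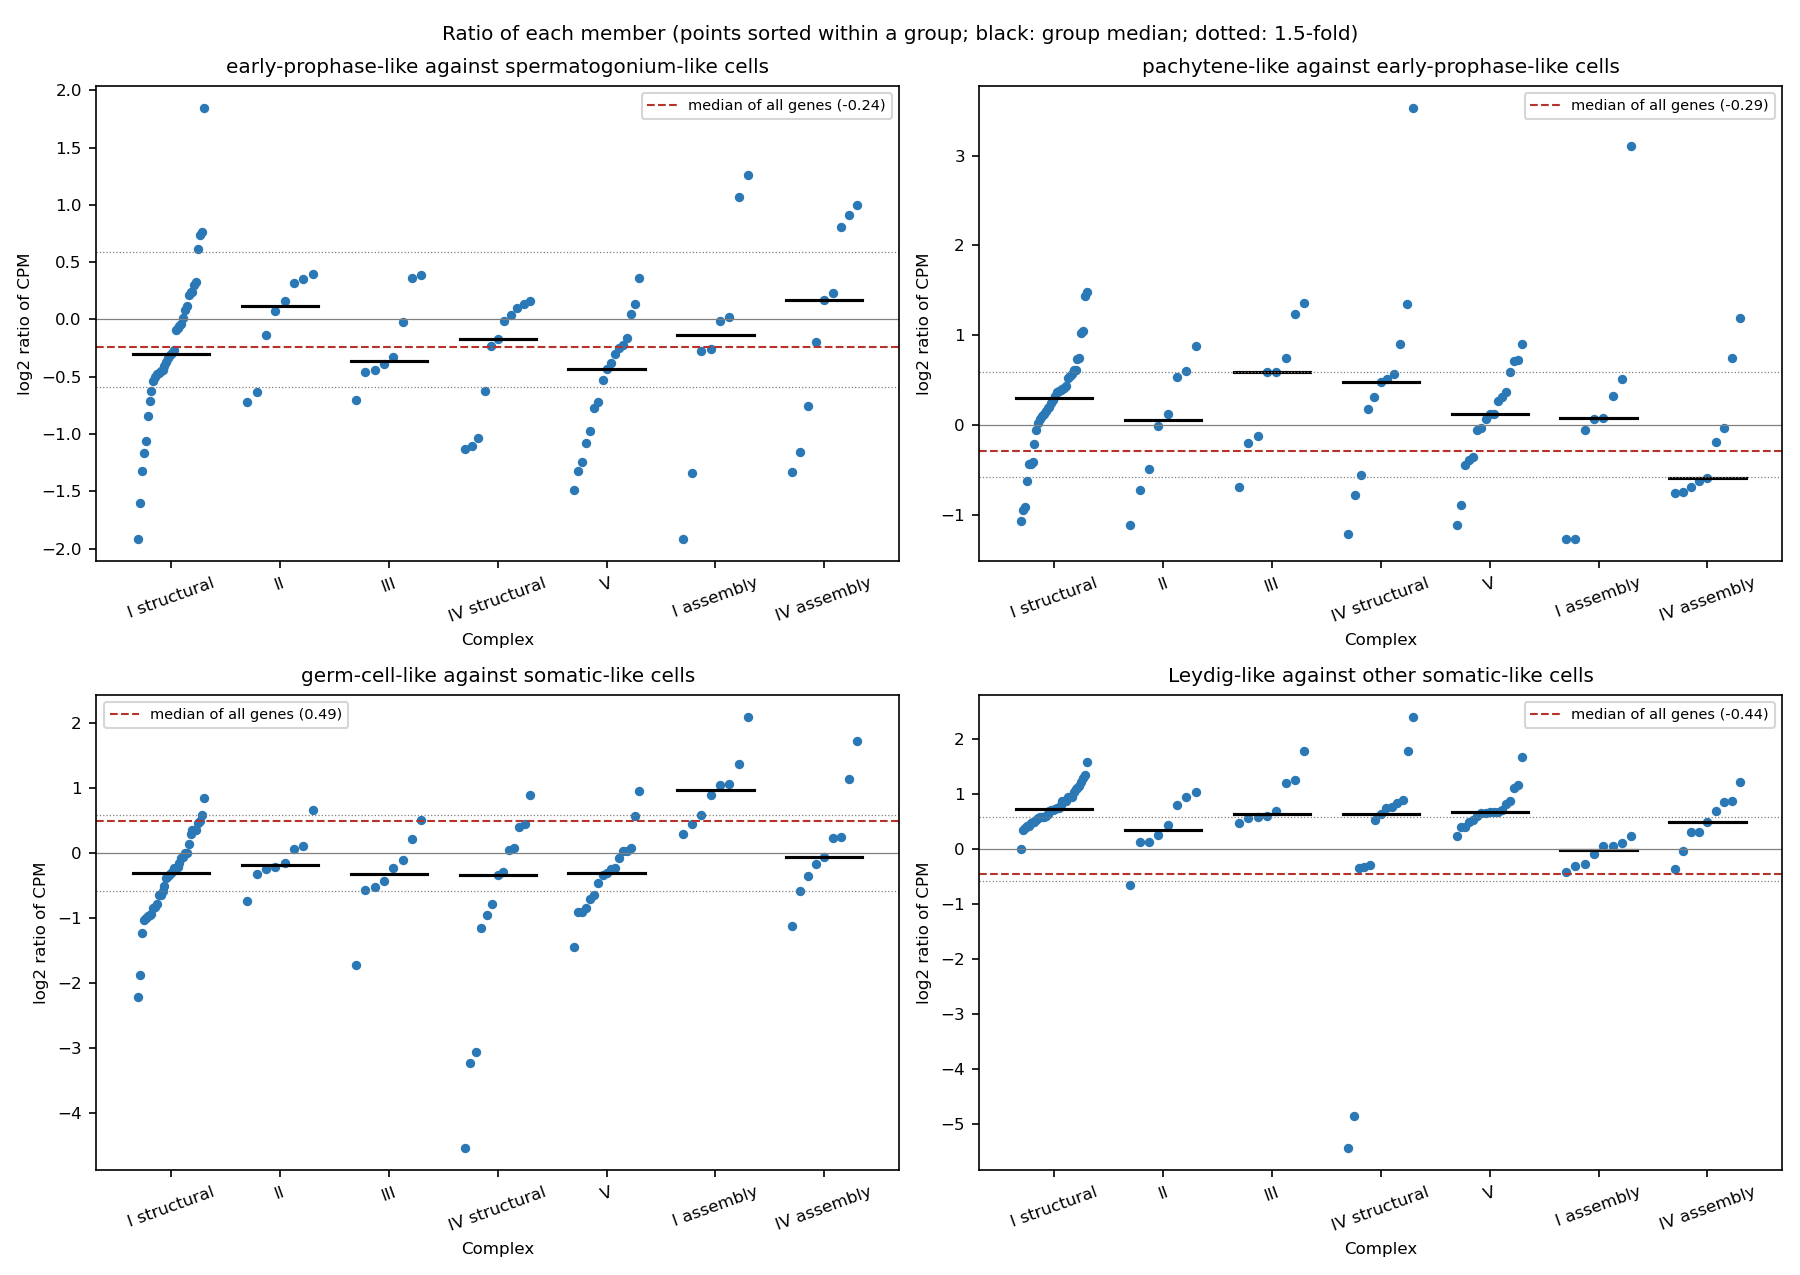
Log2 ratio of CPM for each measured member in 4 comparisons, each dot being 1 gene sorted within its group, with the group's median (black bar), 1.5-fold (dotted) and the median of all genes (red, dashed). In pachytene against early prophase 5 of 8 complex III dots lie past 1.5-fold above and 5 of 9 complex IV assembly dots past it below. Among all genes 26.5% lay past 1.5-fold above and 40.4% past it below. Ndufa4l2 (3.54) and Ndufaf3 (3.10) stand apart.

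The clusters with the highest and the lowest summed level, spermatogonium 3 and early prophase 2, were set side by side because of that difference, which is therefore a description. Of 96 members, 62 were lower in early prophase 2 by 1.5-fold or more and 4 higher, where 38.9% and 24.1% of all 10765 genes were. The summed level was 1.69-fold lower (1.67 to 1.71) and the median log2 ratio -0.86, against -0.25 over all genes. Every one of the 17 complex V genes had a ratio below 1, and 14 were past 1.5-fold. Atp5c1 was 7.18-fold lower (6.21 to 8.33), Ndufaf4 8.93-fold lower (5.62 to 14.9) and Cox4i1 3.94-fold lower (3.62 to 4.28). Of the complex I subunits 21 of 29 accessory and 3 of 7 core ones were past 1.5-fold lower. The summed ratio was 0.895 for complex IV assembly factors and 0.442 for the F1 subunits of ATP synthase, the ends of the range over the groups. Mitochondrially encoded mRNAs ran the other way, with all 13 above 1 and a median log2 ratio of 0.27.

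In pachytene-like cells the summed level was 1.21-fold that of early-prophase-like cells (1.20 to 1.22), with single genes on both sides. Of 97 members, 25 were higher by 1.5-fold or more and 18 lower. Over all 14863 genes 26.5% were that much higher and 40.4% that much lower, so the share of members higher, 25.8%, was near the background and the share lower, 18.6%, was below it. The median log2 ratio was 0.19 for the members and -0.29 for all genes. By complex the summed ratios were 1.21 for complex I subunits, 1.68 for its assembly factors, 1.09 for complex II, 1.36 for complex III, 1.41 for complex IV subunits, 0.805 for complex IV assembly factors and 1.01 for complex V. Without Ndufaf3 the other 7 complex I assembly factors summed to 442 CPM in early prophase and 429 CPM in pachytene, a ratio of 0.972 (0.931 to 1.01).

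Ndufaf3, an assembly factor of complex I, had the steepest course of the well-counted members. It measured 11.5, 21.2 and 42.0 CPM in spermatogonium 1 to 3, 31.1, 18.2, 32.8 and 116 CPM in early prophase, and 180, 272 and 657 CPM in pachytene 1 to 3. The pooled pachytene level was 8.60-fold higher (7.80 to 9.49), and the ratio ranged from 3.37 to 17.7 over the alternative settings. Somatic clusters lay between 24.5 and 85.7 CPM. Impdh2, which overlaps Ndufaf3 on the opposite strand, went from 74.5 to 202 CPM over early prophase and from 206 to 124 CPM over pachytene, a different course; the labels do not say whether counting used strand. No other assembly factor of complex I was past 1.5-fold higher. Ndufaf1 (2.41-fold lower) and Ndufaf5 (2.42-fold lower, 1.60 to 3.74) were lower, although Ndufaf5 had few counts and was 1.17-fold higher against early prophase 4 alone.

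Complex I subunits had 8 higher and 4 lower of 36, all of them accessory, where 26.5% and 40.4% of all genes were. Ndufb10 was 85.6, 38.3, 82.2 and 123 CPM in early prophase and 159, 233 and 264 CPM in pachytene, 2.79-fold higher (2.57 to 3.03). Ndufa8 was 129, 81.8, 113 and 175 CPM and then 252, 356 and 369 CPM, with no overlap. Ndufb5 was 297, 135, 143 and 182 CPM and then 222, 377 and 529 CPM, where early prophase 1 lay above pachytene 1. None of the 7 core subunits differed by 1.5-fold. Ndufa10, an accessory subunit, was 2.11-fold lower (1.91 to 2.33).

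**Figure D3:**
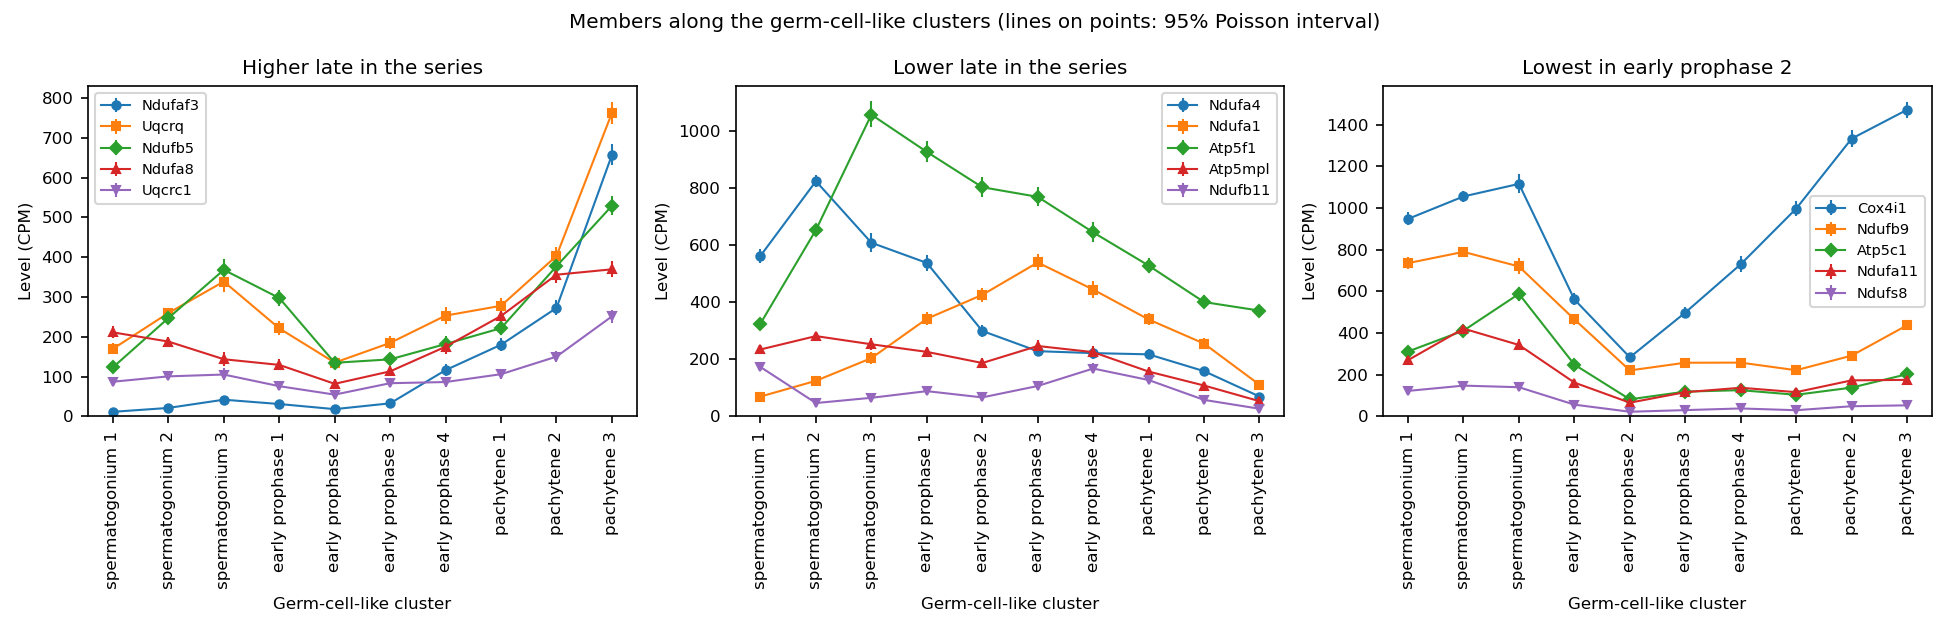
Level (CPM) of 15 members along the 10 germ clusters, with 95% Poisson intervals, in 3 panels of genes that are high late, low late, or lowest in early prophase 2. Ndufaf3 reaches 657 CPM and Uqcrq 762 CPM in pachytene 3, where Ndufa4 is at 69.7 CPM.

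Both X-linked members, Ndufa1 and Ndufb11, were lower in pachytene, a stage in which the X chromosome is known to be silenced in male germ cells. Ndufa1 was 340, 255 and 111 CPM in pachytene 1 to 3, 3.06-fold lower in the last than in the first (2.73 to 3.44). Ndufb11 was 127, 57.8 and 26.8 CPM, 4.76-fold lower (3.80 to 5.99). Rbm10, which overlaps Ndufb11 on the opposite strand, was at 4.77, 0.325 and 3.22 CPM in these clusters. In early prophase the levels of Ndufb11 were 88.5, 66.6, 107 and 168 CPM, so pachytene 1 alone stood 1.23-fold above pooled early prophase and the later clusters below it. Autosomal members were lower too: Ndufa4 was 3.12-fold (2.70 to 3.62) and Atp5mpl 2.95-fold (2.49 to 3.496) lower in pachytene 3 than in pachytene 1.

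Complex III had 5 of 8 subunits higher and 1 lower. Uqcrq, a small subunit next to cytochrome b, was 221, 135, 185 and 253 CPM in early prophase and 278, 403 and 762 CPM in pachytene, 2.57-fold higher (2.44 to 2.71) with no overlap. Uqcrc1, a core protein of the matrix side, was 75.9, 54.7, 83.4 and 86.3 CPM and then 106, 150 and 251 CPM, 2.36-fold higher. Uqcrfs1, the Rieske iron-sulfur protein, was 1.67-fold higher (1.53 to 1.83) and Uqcrc2 was at 186 and then 279 CPM. Uqcr11 alone was past 1.5-fold lower, at 1.62-fold, and against early prophase 4 alone it was 1.15-fold higher.

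In complex II the subunit Sdha was 103 CPM in early prophase and 156 CPM in pachytene, 1.51-fold higher (1.40 to 1.64), and Sdhb, Sdhc and Sdhd stayed within 1.5-fold. The assembly factors differed in direction: Sdhaf4, which acts on the flavoprotein, was 1.83-fold higher and Sdhaf3 2.18-fold lower.

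In complex IV, Cox4i1 was at 997, 1333 and 1471 CPM in pachytene 1 to 3, 2.54-fold above early prophase (2.46 to 2.62). Cox6c was 530, 375, 510 and 857 CPM in early prophase and 1105, 1260 and 775 CPM in pachytene, with its high point in pachytene 2. Vps13b, which overlaps Cox6c on the opposite strand, was at 279, 400, 354 and 219 CPM and then 133, 117 and 71.3 CPM. Emc8, which overlaps Cox4i1 on the opposite strand, was at 247, 164, 137 and 121 CPM and then 145, 129 and 78.5 CPM. Whether these overlapping genes share counts was not tested. Ndufa4 was lower in each cluster after spermatogonium 2: from 824 CPM there to 609 in spermatogonium 3, 538, 299, 229 and 222 CPM in early prophase and 217, 159 and 69.7 CPM in pachytene, 2.32-fold lower (2.18 to 2.48) between the 2 classes. Of the assembly factors 5 of 9 were lower, where 40.4% of all genes were. Cox10, which makes the heme precursor of the enzyme, was 1.69-fold lower (1.46 to 1.96), while Cox20, a chaperone of the mitochondrially encoded COX2, was 2.28-fold higher (1.94 to 2.68).

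Complex V stayed level in sum, with 4 of 17 higher and 2 lower, where 26.5% and 40.4% of all genes were. None of the 5 F1 subunits differed by 1.5-fold, and Atp5c1, at 104, 138 and 202 CPM in pachytene, stayed below its 588 CPM of spermatogonium 3. Atp5f1 was 529, 401 and 371 CPM, 1.86-fold below early prophase (1.79 to 1.93), and Atp5mpl, a small membrane subunit, was 2.17-fold lower (2.01 to 2.34). Atp5g1 and Atp5g3, genes of the ring subunit c, were 1.66-fold and 1.86-fold higher, and Atp5g3 differed by 1.04-fold from early prophase 4 alone.

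The low point, early prophase 2, and the high point, spermatogonium 3, were also each set beside the last cluster. Both were chosen for their summed levels, so an excess of members above early prophase 2 follows in part from that choice. The values are a description. Of 97 members, 50 were higher and 18 lower in pachytene 3 than in early prophase 2 by 1.5-fold or more, where 37.3% and 39.7% of all 11920 genes were. Ndufaf3 was 36.0-fold higher (27.2 to 48.8), Ndufb10 6.90-fold, Uqcrq 5.64-fold and Cox4i1 5.19-fold, and the ratio of Ndufa4l2 (44.7, 12.1 to 373) rests on 2 UMIs in early prophase 2. Pachytene 3 and spermatogonium 3 were closest in complexes I and IV and farthest apart in ATP synthase among the structural groups. The summed ratio of pachytene 3 to spermatogonium 3 was 0.989 (0.969 to 1.01) for complex I subunits, 1.03 for complex IV subunits and 1.12 for complex III, and 0.613 (0.599 to 0.627) for complex V. Atp5f1 was 2.85-fold and Atp5c1 2.90-fold lower in that pair. These clusters had median depths of 20011 and 3960.5 UMIs per cell, and the part of depth in these ratios was not tested.

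Members and mitochondrially encoded mRNAs had opposite courses late in the series. The ratio of member UMIs to the UMIs of the 13 mitochondrial mRNAs was 0.255, 0.345 and 0.402 in spermatogonium 1 to 3, then 0.284, 0.205, 0.269 and 0.324, and then 0.412, 0.571 and 0.914 (0.905 to 0.923) in pachytene. All 13 mitochondrial mRNAs were past 1.5-fold lower in pachytene than in early prophase (median log2 ratio -0.85). The gene mt-Co1, a core subunit of complex IV, was 4312, 3230 and 2348 CPM in pachytene 1 to 3. Cells with over 10% mitochondrial UMIs had been removed, which limits this ratio from below.

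**Figure D4:**
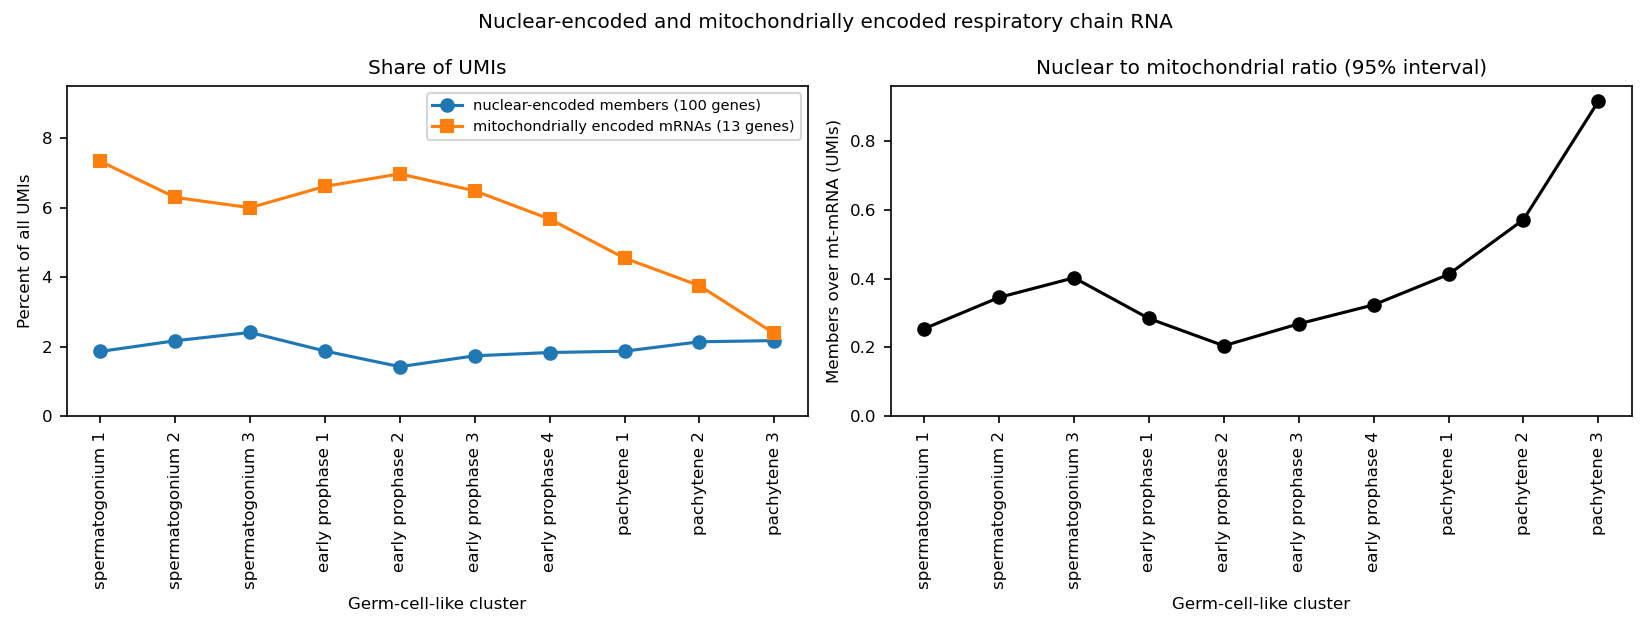
Left, percent of UMIs from the 100 members and from the 13 mitochondrial mRNAs in each germ cluster; right, the ratio of the 2 sums with its 95% interval. The ratio is lowest in early prophase 2, at 0.205, and highest in pachytene 3, at 0.914.

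Other genes around the pathway are read against the 40.4% of all genes lower and 26.5% higher by 1.5-fold or more in pachytene than in early prophase. Among 17 other subunits and electron carriers 12 were past 1.5-fold lower and 2 higher, and Etfa, an electron transfer flavoprotein, was at 346 and then 98.1 CPM. Of 30 measured assembly factors with other names 13 were lower (43.3%, near that background) and 6 higher, and Ecsit, an assembly factor of complex I, was at 108 and then 13.1 CPM. Regulators of mitochondrial biogenesis had 6 lower and none higher of 12, with Pprc1, a coactivator, at 25.7 and then 8.52 CPM. Mitochondrial ribosomal proteins were balanced, 15 higher and 17 lower of 78, from Mrpl53 (2.98-fold higher) to Mrps25 (2.60-fold lower). The citric acid cycle with pyruvate dehydrogenase was split 7 higher and 8 lower of 19, with Dlat, its E2 subunit, at 39.9 and then 102 CPM and Pdha1, the X-linked E1 subunit, at 9.88 and then 1.44 CPM. Glycolysis was split 5 higher and 8 lower of 16: the glucose transporter gene Slc2a3 was at 19.8 and then 399 CPM and Gpi1, a glucose phosphate isomerase, at 24.0 and then 6.67 CPM.

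Members took a larger share of the UMIs in somatic-like than in germ-like cells, a direction that depended on Leydig 1. The summed level was 19796 CPM in germ and 23894 CPM in somatic cells, a ratio of 0.828 (0.825 to 0.832) that turned to 1.17 without Leydig 1, 1.13 with cells of at most 5% mitochondrial UMIs and 1.03 with equal weight for each class. Of 99 members, 11 were higher and 29 lower in germ cells by 1.5-fold or more, where 48.0% and 31.0% of all 18427 genes were. The median log2 ratio was -0.23 for members and 0.49 for all genes. Without Leydig 1 the counts were 24 higher and 8 lower of 98, or 24.5% and 8.16%, where 44.5% and 31.6% of all genes were, and the medians were 0.20 for members and 0.37 for all genes.

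By group, germ cells were higher in 5 of 8 complex I assembly factors and lower in none, where 48.0% and 31.0% of all genes were. Ndufaf3 was 4.28-fold and Ndufaf2 2.58-fold higher (2.39 to 2.79), the latter at 99.7 to 150 CPM in every germ cluster. Complex I subunits were lower in 13 of 36, led by Ndufb11 (86.4 CPM in germ and 400 CPM in somatic cells), and higher in 1, Ndufv2. Germ cells also had more Cox11, a copper chaperone of complex IV (3.30-fold, 2.96 to 3.69), more Cox5a (1.86-fold) and more Atp5f1 (1.94-fold). They had less Uqcr10, a small complex III subunit (115 and 380 CPM), less Atp5g3 (326 and 885 CPM) and less Cox14, an assembly factor (2.17-fold). Without Leydig 1 the ratios of Uqcr10, Atp5g3 and Cox14 were 0.717, 0.821 and 0.808, all still below 1, and Cox6a1, 0.518 with it, was 1.22.

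Leydig 1, a cluster of 948 cells with 10 of 10 Leydig markers raised, held the highest summed level of the named clusters, 29416 CPM (29301 to 29532), or a median of 2.89% of a cell's UMIs. Against the other somatic clusters 57 of 99 members were higher and 3 lower by 1.5-fold or more, where 13.9% and 43.6% of all 14558 genes were; this comparison was added because the cluster stood out, so it is a description. The median log2 ratio was 0.64 for members and -0.44 for all genes. The higher members were 25 of 36 complex I subunits, 3 of 8 complex II genes, 6 of 8 complex III, 7 of 13 complex IV and 12 of 17 complex V subunits, 4 of 9 complex IV assembly factors and none of the 8 complex I assembly factors. Uqcr10 was 3.46-fold (3.24 to 3.71), Cox6a1 3.44-fold, Atp5g3 3.21-fold and Ndufb8 3.02-fold higher. Cox5a was lower, with 437 CPM in Leydig 1 and 537 CPM in the others. Of the other named clusters Sertoli 3, with 48 cells, was next at 26090 CPM, and unnamed 2, with 133 cells, was at 28061 CPM, while Sertoli 1 and 2 had 15817 and 17674 CPM. The remaining named somatic clusters lay between 14182 and 21814 CPM. Barcodes under 1000 UMIs, which may hold shallow cells as well as free RNA, were at 21527 CPM.

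Subunit c of ATP synthase is made as 1 protein from 3 genes that differ in their import signal, and the share of their UMIs from Atp5g3 was 31.9, 25.1 and 19.0% in spermatogonium 1 to 3, 24.1, 26.7, 38.0 and 46.7% in early prophase and 51.1, 41.0 and 38.3% in pachytene. The share in Leydig 1 was above all of these, 57.9% (57.1 to 58.6), while the other named somatic clusters, at 32.1% (macrophage 2) to 49.6% (peritubular 2), lay within the germ range. Atp5g1 had 44.9% in spermatogonium 1 and 21.0% in pachytene 1. The counted tags are not divided by gene length, and the shares compare clusters rather than genes.

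**Figure D5:**
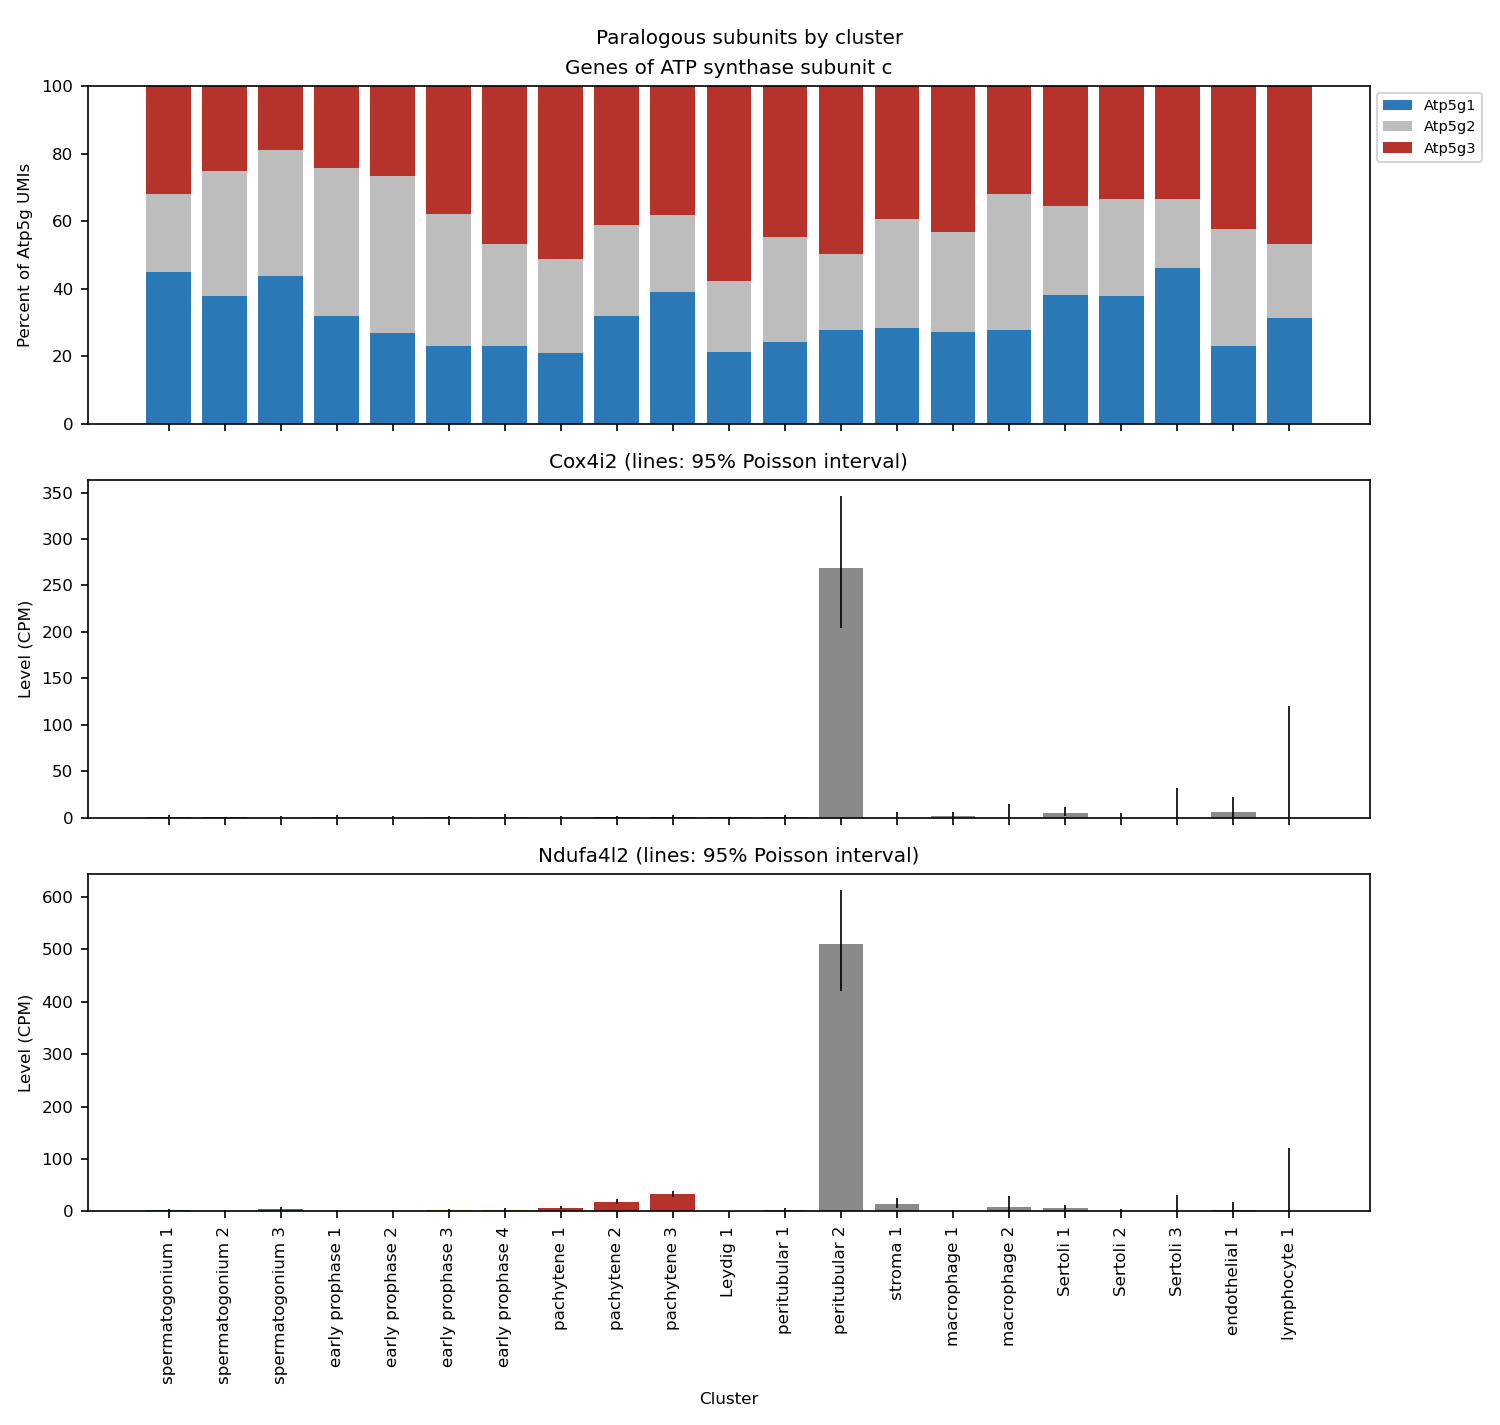
Top, percent of Atp5g UMIs from each of the 3 genes by cluster. Middle and bottom, levels (CPM, lines for 95% Poisson intervals) of Cox4i2 and Ndufa4l2. Cox4i2 and Ndufa4l2 stand out in peritubular 2, at 269 and 510 CPM, and the Atp5g3 share is largest in Leydig 1, at 57.9%.

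Cox4i2 and Ndufa4l2 were highest in peritubular 2. Cox4i2, the oxygen-responsive form of subunit 4, had 59 UMIs in peritubular 2 (269 CPM, 204 to 347), 24.5% of the Cox4i UMIs there, and 1 UMI in peritubular 1 (0.463 CPM). Ndufa4l2, a hypoxia-induced relative of Ndufa4, had 112 UMIs in the same cluster (510 CPM, 420 to 614), 45.9% of the 2-gene family. Peritubular 2 has 68 cells and 11 of 11 peritubular or pericyte markers raised. Its top genes included Rgs5, Higd1b, Pdgfrb and Notch3, and those of peritubular 1 included Tnnt2 and Casq2. The 2 clusters may therefore not be 1 cell type, and the contrast need not be one among peritubular myoid cells. Of its cells 32 (47.1%) had a Cox4i2 UMI, 40 (58.8%) an Ndufa4l2 UMI, and 23 had both. Thinned to 1500 UMIs per cell, 34.9% and 46.0% of the 63 cells deep enough had them, against 0 and 0.843% of cells in peritubular 1 (median depths of 3056.5 and 3592 UMIs). Ndufa4l2 also had UMIs in 9 cells of stroma 1 (3.56%, and 2.76% thinned). Shmt2, which overlaps Ndufa4l2 on the opposite strand, was at 13.7 CPM in peritubular 2.

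Ndufa4l2 appeared again in germ cells, at 33.2 CPM (27.6 to 39.6) in pachytene 3, where it was 32.3% of the Ndufa4 and Ndufa4l2 UMIs. Pooled, pachytene was 11.6-fold above early prophase (7.16 to 19.98) at 20.6 and 1.78 CPM, with ratios of 3.64 to 19.6 over the alternatives. In pachytene 3, 31.8% of cells had a UMI at full depth and 4.49% at 1500 UMIs, and in early prophase 2 the shares were 0.36% and 0. Shmt2, on the opposite strand, was at 52.6, 29.9 and 16.7 CPM in spermatogonium 1 to 3 and 7.59, 1.49, 2.32 and 2.41 CPM in early prophase. In pachytene 1 to 3 it was at 4.09, 10.7 and 20.6 CPM, a rise like that of Ndufa4l2. Whether the overlapping genes share counts was not tested. Cox7a1, the heart and muscle form of subunit 7a, had 92.7 CPM in Leydig 1 (14.5% of the Cox7a family) and 17.4 CPM over the other somatic clusters, and 7.097 CPM in germ cells. Cox6a2, its heart and muscle counterpart for subunit 6a, had 10 UMIs in macrophage 1 and 11 in Leydig 1, and Cox8b had 1 UMI in Leydig 1, too few to compare.

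Over the 10 named classes, genes outside the set whose log2 level was most like the members' sum, among 148 with 20 UMIs in every class, included Hspa8 (r = 0.60), Rplp0 (0.50), mt-Nd4 (0.45) and mt-Co1 (0.45). Hspa8 encodes a chaperone, Rplp0 a ribosomal protein and the others subunits of complexes I and IV, and no test was made. The classes share the library and differ in depth.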

How the data were processed

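For the day 35 knockout, the authors deposited UMI counts (whole numbers, not normalised). Cell Ranger 7.1.0, STAR and mm10 are named in the submitters' processing notes. Cell calling and strand use are not given in the sources used here. Of 15306 barcodes, 8121 passed limits of 500 or more genes, 1000 or more UMIs and no more than 10% mitochondrial UMIs, and 265 doublets (3.26%, Scrublet in scanpy 1.11.5) were removed. Clusters (3000 variable genes, 30 components, 15 neighbours, Leiden resolution 1, leidenalg 0.10.2) left out the members, the pathway lists and mitochondrial, X- and Y-linked genes, 2099 in all. Each named cluster took the name with the largest share of detected markers at least 2-fold above the other clusters. The 3 shallow clusters, at medians of 1243, 1418 and 1262 UMIs per cell, were left unnamed although they had markers raised. These were 10 of 15 Sertoli markers in unnamed 1, 5 of 11 differentiating spermatogonium markers in unnamed 2 and 2 of 4 elongating spermatid markers in unnamed 3. The authors' barcode lists of any pair of the 4 libraries share 45 to 81 barcodes. Free RNA was not subtracted.

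Summed counts per cluster became CPM with Poisson intervals (exact), ratios had exact conditional binomial intervals and shares exact Clopper-Pearson intervals (scipy 1.17.1). UMIs remove PCR copies, and intervals leave out variation between animals. A ratio needed 20 UMIs over both groups. On simulated counts the intervals were checked for coverage. Of 32285 gene identifiers 32235 matched a GENCODE annotation of the same build, by which 35 of the 100 members overlap a gene on the opposite strand and 2 a gene on the same strand, where counts may be shared.

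The text names catalytic and core subunits, members with a paralogue, the largest ratio of at least 1.5-fold in each direction per group and comparison, and per list in pachytene against early prophase; other names were chosen after their values were seen. Members and lists were chosen with earlier results of these data known. The naming rule for clusters, the comparisons of single clusters and of Leydig 1, and 5 of the alternatives were chosen after seeing the data. Some items that this rule names are not reported here.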

Additional observations from a re-analysis of the deposited data

How the results depend on the processing

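No paired analysis was possible because 1 library was analysed and no result comes from a test. Alternatives changed the filters on cells, mitochondrial UMIs and low counts, doublets, clustering, weighting, CPM total and the clusters pooled. Those on naming, free RNA, Leydig 1, the last spermatogonium cluster and the last pachytene cluster were chosen after seeing the data. The cause of each change was not tested.

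For germ against somatic cells the numbers higher and lower and the median log2 ratio were 11, 29 and -0.23. They were 25, 12 and 0.17 at most 5% mitochondrial UMIs (2072 cells, 34 of them Leydig-like), 7, 48 and -0.58 with TMM factors, 20, 15 and 0.0559 with equal class weight, and 24, 8 and 0.20 without Leydig 1; equal cell weight gave 17 higher. For early prophase against spermatogonia, spermatogonium 3 alone gave 5 higher in place of 9 and medians of -0.44 for members and 0.0036 for all genes. For pachytene against early prophase (25 higher, 18 lower), the 5% limit gave 11 lower, TMM gave 40 higher, 9 lower and a median of 0.43, early prophase 4 alone gave 16 higher, and pachytene 1 alone gave 15 higher and a median of -0.0326. TMM moved the median of all genes by -0.35, 0.20 and 0.24 in these comparisons. It rescales all genes of a class alike, so the members' median relative to all genes could not change from -0.72, -0.02 and 0.48. Over the other alternatives that relative median ranged from -0.802 to -0.0251, from -0.441 to 0.0327 and from 0.318 to 0.792. The value -0.0251 came with the 5% limit on mitochondrial UMIs, and -0.441 against spermatogonium 3 alone.

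Ratios past 1.5-fold that crossed 1 were Cox20 (1.16, germ against somatic), Ndufb10 (1.01, early prophase against spermatogonia) and Atp5g3 (0.9999, pachytene against early prophase) at 5% mitochondrial UMIs, Ndufs3 (1.02) and Cox6a1 (1.22) without Leydig 1, Ndufaf5 (1.17) and Uqcr11 (1.15) against early prophase 4 alone, and Ndufb11 (1.23) in pachytene 1 alone. Of 2366 values of the named members' ratios 1506 kept within counting error of the main one, 852 moved beyond it and 8 are those just named. With smaller ratios included 157 values crossed 1, among them Atp5f1 (1.28 to 0.753) and Cox5a (1.099 to 0.948) against spermatogonium 3 alone. Summed ratios of the members spanned 0.649 to 1.17, 0.711 to 0.929 and 1.09 to 1.43. Members with few UMIs, such as Ndufaf5 and Cox6a2, are limited by depth.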
